A study of Mus musculus with 6 samples.

Results

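The genes described here make prostaglandins or receive their signal. They are the cyclooxygenases Ptgs1 and Ptgs2, the terminal synthases Ptges, Ptgds and Ptgis, and the receptors Ptger1, Ptger2, Ptger3, Ptger4 and Ptgfr. They were chosen by gene name, with the differences between the genotypes already known, as probe sets whose platform annotation gives that 1 gene symbol. Of the 10 genes, 9 had such a probe set, out of 19938 genes in all. Ptgs1 had none and is not analysed here. The rule keeps the brightest of several probe sets, by the mean over all 6 arrays, but each of the 9 genes had only 1, so that step chose nothing.

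Total RNA came from immortalized neural precursor-like cells, derived from the brains of C57BL/6J mouse embryos at day 13.5 and kept in RPMI with a small amount of serum. The 3 wild-type samples (Lgi1 wild type) and the 3 samples labelled Lgi1 knock-out, with a homozygous deletion of this secreted neuronal protein's gene, were hybridised singly to Mouse Gene 1.0 ST arrays, which carry probes along the whole transcript. Both genotypes share strain, embryonic age, immortalization and medium, and the labels give neither the number of embryos or lines behind a genotype nor the deleted part of Lgi1. The titles call the samples biological replicates but do not say what was replicated. The spread behind each p-value is that of these samples only and could be technical. The comparison of the genotypes asks which transcripts differ between the samples labelled wild type and those labelled Lgi1 knock-out.

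Cyclooxygenases turn arachidonic acid, cut from membrane lipids by phospholipases, into the unstable precursor prostaglandin H. Terminal synthases convert that precursor into separate products: Ptges makes prostaglandin E, Ptgds prostaglandin D and Ptgis prostacyclin. The products leave the cell and act on G protein-coupled receptors, of which Ptger2 and Ptger4 raise cyclic AMP, Ptger3 mostly lowers it, and Ptger1 and Ptgfr mobilise calcium. In the brain Ptgs2 is known as an activity- and cytokine-induced enzyme of neurons and glia, Ptgds as a product of meninges, choroid plexus and oligodendrocytes, and prostacyclin as a product of vessel walls and fibroblasts.

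Facts of the whole array set bear on every value that follows. Medians of the 6 arrays lay between 6.36 and 6.41 on the log2 scale. Lgi1 lay under the background level in both genotypes (means of 4.77 and 4.55) and so did not check the labels. The background level used here is 5.67, the 95th percentile of 1190 olfactory and vomeronasal receptor genes. The genotypes also differed in sex-linked RNA: Xist, which silences an X chromosome, averaged 4.64 on wild-type and 12.44 on knock-out arrays, and the Y-linked Eif2s3y 10.19 and 4.67. By the test described below, 14.0% of all genes rose and 17.6% fell. Of 9 measured markers of neural progenitors 6 fell, none rose and 3 were not called, and Sox2 and Pax6 were under background in knock-out cells (5.35 and 5.44). Of 11 markers of fibroblasts and meninges 10 rose, none fell and 1 was not called. These differences run along the same split of the arrays as each difference described below, and their part in it was not tested.

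Promoter windows show the stretch of DNA from which the members that moved are read, and are printed for 3 of them. They come from RefSeq (GRCm38.p6) and run from 250 bases before to 50 after the annotated start. Of the 10 genes, 8 had a window, and Ptgis and Ptger1 had none. Capitals mark matches, on either strand, to 6 motifs: the TATA box (TATAAA), the core of the cyclic AMP response element (CGTCA), the E-box (CACGTG), the AP-1 site (TGANTCA), the GC box (GGGCGG) and the degenerate NF-kappaB motif. Ptgs2 and Ptger4 stand for members that fell and Ptges for a member that rose. The windows lie at chr1:150099781-150100080 (plus strand, Ptgs2), chr15:5244138-5244437 (minus strand, Ptger4) and chr2:30903248-30903547 (minus strand, Ptges).
Ptgs2: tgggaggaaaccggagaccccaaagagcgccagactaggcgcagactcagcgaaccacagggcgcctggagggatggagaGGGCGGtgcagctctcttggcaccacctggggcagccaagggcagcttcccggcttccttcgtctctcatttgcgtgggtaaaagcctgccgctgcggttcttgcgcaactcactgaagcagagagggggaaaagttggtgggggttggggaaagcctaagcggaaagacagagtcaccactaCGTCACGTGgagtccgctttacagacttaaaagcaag
Ptger4: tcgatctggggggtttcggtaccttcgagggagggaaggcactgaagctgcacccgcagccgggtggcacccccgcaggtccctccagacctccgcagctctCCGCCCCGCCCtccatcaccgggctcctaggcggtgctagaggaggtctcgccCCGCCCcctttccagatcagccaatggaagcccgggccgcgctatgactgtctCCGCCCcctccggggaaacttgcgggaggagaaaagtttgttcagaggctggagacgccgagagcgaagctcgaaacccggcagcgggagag
Ptges: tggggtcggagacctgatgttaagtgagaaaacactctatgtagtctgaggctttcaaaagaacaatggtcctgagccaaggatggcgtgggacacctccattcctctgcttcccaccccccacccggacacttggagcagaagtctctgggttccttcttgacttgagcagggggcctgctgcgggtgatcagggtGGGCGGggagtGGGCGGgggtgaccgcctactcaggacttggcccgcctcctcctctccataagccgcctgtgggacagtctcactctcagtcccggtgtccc

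The Ptgs2 window held 1 GC box, at position −170 from the annotated start, and a CGTCA at position 13 that shares its last bases with a CACGTG at position 16. Of 32851 RefSeq windows of this length, 20.8% held CGTCA and 7.15% held CACGTG. No other member's window held either. The Ptger4 window held 4 GC boxes and the Ptges window 2, a motif found in 35.7% of all windows. Matches to AP-1 and NF-kappaB were found in the Ptgds window alone among the members (7.81% and 8.46% of all windows), and TATAAA in none of theirs (13.6%). A match is a stretch of letters and does not show binding.

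Of the 9 measured genes, 5 differed between the genotypes: Ptgis, Ptges and Ptger1 rose, and Ptgs2 and Ptger4 fell. A gene is said to have risen or fallen where limma's moderated test, fitted over all 19938 genes, gave an adjusted p (Benjamini-Hochberg) under 0.05. The background is high, since 31.6% of all genes passed this test, 14.0% upward and 17.6% downward. At least 2-fold changes are rarer, at 5.32% of genes, 3.05% upward and 2.27% downward, and here 2 members rose (Ptgis, Ptges) and 2 fell (Ptgs2, Ptger4) by that much. The median absolute log2 difference was 0.71 over the 9 members and 0.11 over all genes. The family was picked with these results known, so neither the counts nor the p-values are independent evidence about it.

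**Figure D1:**
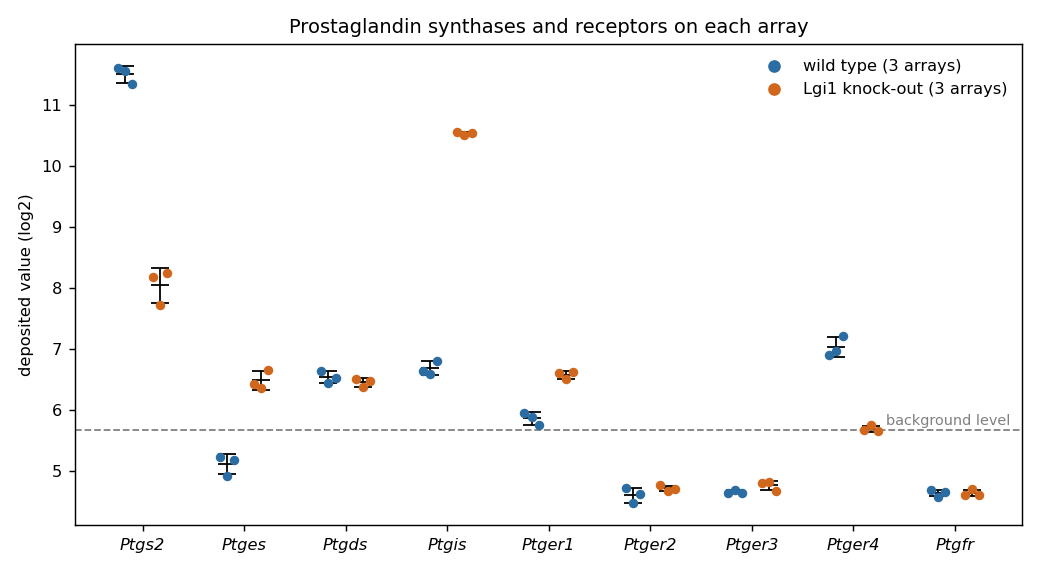
Deposited log2 value (vertical axis) of the 9 measured genes on each of the 3 wild-type (blue) and 3 knock-out (orange) arrays, with bars at the mean ± SD of a genotype and a dashed line at the background level of 5.67. Ptgs2 and Ptger4 lie lower, and Ptges, Ptgis and Ptger1 higher, on every knock-out array, while Ptger2, Ptger3 and Ptgfr lie under the line on all 6. Arrays of the genotypes did not overlap for 42.3% of all genes.

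Ptgs2, the inducible cyclooxygenase (probe set 10350516, chromosome 1), was high in wild-type cells, with log2 values of 11.61, 11.55 and 11.35. On the knock-out arrays it read 8.18, 7.72 and 8.24. The genotypes did not overlap, as was the case for 42.3% of all genes, and knock-out replicate 2 was the lowest of the 6. The means were 11.50 ± 0.139 and 8.05 ± 0.286 (SD, n = 3 each), the latter still well over background. Ptgs2 thus fell by 3.46 on the log2 scale (SE 0.13), 11.0-fold (limma adjusted p = 1.5e-08), which is the 25th-largest fall among all genes. The SD of the knock-out arrays was the largest of any member in either genotype, where the median SD was 0.0866, against 0.0785 over all genes. In bulk RNA, fewer cells carrying a transcript and less of it per cell cannot be told apart, here and below.

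Ptgis, the prostacyclin synthase (probe set 10489878, chromosome 2), moved the other way and by more. Wild-type cells gave log2 values of 6.64, 6.60 and 6.81. Knock-out cells gave 10.55, 10.51 and 10.55, all far above every wild-type array and close to one another. The means were 6.69 ± 0.114 and 10.54 ± 0.0252 (SD, n = 3 each), a rise of 3.85 (SE 0.07) or 14.4-fold (limma adjusted p = 7.9e-11). It was the largest difference in the family, the 75th-largest rise and the 93rd-largest change of any sign among the 19938 genes. Ptgis is known from fibroblasts, smooth muscle and endothelium. The fibroblast and meninges list rose with it, its mean level going from 6.78 to 6.81 on the wild-type arrays to 9.52 to 9.60 on the knock-out arrays, with none of its 11 markers under background there. Of 7 pericyte and smooth muscle markers 3 rose and 1 fell, and the list's mean level was 8.04 to 8.14 on the wild-type and 8.91 to 8.98 on the knock-out arrays, with Myh11 and Des under background in both. Of 7 endothelial markers Tek and Erg rose and Kdr fell (from 5.21 to 4.77), while Pecam1, Cdh5, Cldn5, Vwf and Kdr lay under background in both genotypes. The mean level of the endothelial list was 5.02 to 5.13 on the wild-type and 6.04 to 6.13 on the knock-out arrays. The part of these cell types in the rise of Ptgis was not tested.

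Ptges, the inducible microsomal prostaglandin E synthase that often acts with Ptgs2 (probe set 10481518, chromosome 2), rose while Ptgs2 fell. Wild-type arrays read 5.24, 4.93 and 5.18, all under background. Knock-out arrays read 6.44, 6.37 and 6.66, all above it. The means were 5.11 ± 0.166 and 6.49 ± 0.150 (SD, n = 3 each; log2 difference 1.37, SE 0.10, limma adjusted p = 2.4e-06). Because the wild-type signal was at background, the 2.59-fold difference is limited by it, and the knock-out mean stood 0.82 above the background level.

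Ptgds, the lipocalin-type prostaglandin D synthase (probe set 10480734, chromosome 2), did not pass the test. Its values were 6.64, 6.45 and 6.54 on wild-type arrays and 6.51, 6.38 and 6.47 on knock-out arrays. The groups overlapped, and the log2 difference was −0.09 with a 95% interval from −0.24 to 0.07 (limma adjusted p = 0.44). Of the 6 choroid plexus markers, 5 (Ttr, Folr1, Kl, Clic6 and Otx2) were under background in both genotypes, and Aqp1 rose (from 5.22 to 6.87). Of the 6 measured oligodendrocyte markers, Olig1, Olig2, Sox10 and Mog were under background in both, Mbp fell (from 6.69 to 5.82) and Cnp was not called (8.34 and 8.42). The fibroblast and meninges list rose in 10 of 11 markers on the same arrays. The part of these cells in the level of Ptgds was not tested.

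**Figure D2:**
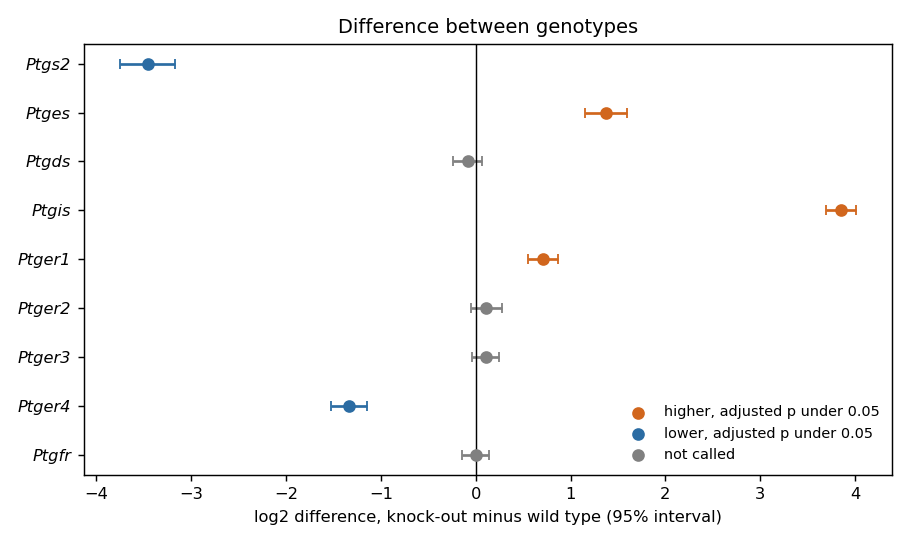
Log2 difference of each gene, knock-out minus wild type (horizontal axis), with its 95% interval from limma's moderated fit, coloured by whether it was called higher (orange), lower (blue) or not (grey). Ptgis (3.85) and Ptgs2 (−3.46) lie farthest from 0 on opposite sides, and the intervals of Ptgds, Ptger2, Ptger3 and Ptgfr include 0.

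Among the receptors, Ptger4 fell and Ptger1 rose. Ptger4, a receptor for prostaglandin E that couples to cyclic AMP (probe set 10427461, chromosome 15), had values of 6.91, 6.97 and 7.22 on the wild-type arrays. Its knock-out values were 5.68, 5.75 and 5.66, all close to the background level. The genotypes did not overlap, as was the case for 42.3% of all genes. The means of 7.03 ± 0.164 and 5.70 ± 0.0490 (SD, n = 3 each) give a fall of 1.33 on the log2 scale (SE 0.08, limma adjusted p = 8.1e-07), which ends at the background level. Ptger1, the calcium-coupled receptor for the same ligand (probe set 10573210, chromosome 8), read 5.95, 5.89 and 5.75 without the deletion and 6.61, 6.51 and 6.62 with it. Its arrays did not overlap either. The difference of 0.71 (SE 0.07, limma adjusted p = 2.9e-05) is 1.64-fold and starts 0.19 above background.

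Ptger2, Ptger3 and Ptgfr were at background in both genotypes. Ptger2, the other cyclic AMP-raising receptor for prostaglandin E, read 4.72, 4.48 and 4.62 on wild-type arrays and 4.77, 4.68 and 4.71 on knock-out arrays. Its log2 difference was 0.11 (95% interval −0.05 to 0.28, limma adjusted p = 0.31). Ptger3, which couples mainly to inhibitory G proteins, read 4.65, 4.69 and 4.64 on wild-type arrays and 4.81, 4.82 and 4.68 on knock-out arrays. Its difference was 0.11 (95% interval −0.03 to 0.25, limma adjusted p = 0.26). Ptgfr, the receptor for prostaglandin F, read 4.69, 4.58 and 4.66 on wild-type arrays and 4.61, 4.71 and 4.61 on knock-out arrays (limma adjusted p = 0.998 for a difference whose 95% interval runs from −0.14 to 0.14). Groups overlapped for these genes, and signals this dim cannot show a small change.

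Other genes of the pathway were read off the same fit. Listed with them as pathway genes were leukotriene and lipoxygenase genes, known inducers of Ptgs2 and Ptges, and genes that respond to cyclic AMP. Of these 79 genes 72 were measured, of which 11 rose and 16 fell, with 2 rises and 4 falls of at least 2-fold. The inducer list held 2 of these rises and 1 of these falls, and the cyclic AMP list 2 falls. The list of arachidonate release held the remaining 1. The share called, 27 of 72, stands beside 31.6% of all genes, and 29 of the 72 were under background in both genotypes. The median log2 difference was 0.01, against −0.01 over all genes, and the median absolute difference 0.18.

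Genes that supply arachidonate come first. Pla2g4a, the cytosolic phospholipase that releases it, read 9.41, 9.52 and 9.31 on wild-type arrays and 9.53, 9.50 and 9.61 on knock-out arrays (log2 difference 0.13, SE 0.07, limma adjusted p = 0.20). Of the 14 measured genes of this list 1 rose and 4 fell, and the largest change was that of Faah, which hydrolyses the arachidonate-containing lipid anandamide (from 7.70 to 6.58, log2 difference −1.12, SE 0.08, limma adjusted p = 1.9e-06). Among 7 other prostanoid synthases 2 rose and none fell. The other prostaglandin E synthase genes Ptges2 (wild-type and knock-out means of 6.62 and 6.73) and Ptges3 (13.03 and 12.86) were above background and not called. Ptges3l rose from 5.41, under background, to 5.68, close to the background level. Cbr1, a carbonyl reductase that can convert prostaglandin E to F, rose by 0.92 (limma adjusted p = 4.6e-06), while Hpgds and Tbxas1, which make prostaglandin D and thromboxane in blood cells, were under background. Of 9 measured microglia and leukocyte markers none was called by limma (2 had an unadjusted p under 0.05), and all but Cd68 were under background.

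Genes that move or break down prostaglandins gave 1 rise and 2 falls of 7. Abcc4, an exporter of prostaglandins, fell from 7.76 to 6.92 (log2 difference −0.84, SE 0.07, limma adjusted p = 7.7e-06). Of the 5 other receptor genes 1 fell, Ptgfrn, which encodes a membrane partner of the prostaglandin F receptor (from 9.78 to 8.89, log2 difference −0.89, SE 0.07, limma adjusted p = 3.7e-06). The prostacyclin receptor Ptgir was under background in both genotypes, with values of 4.98, 4.98 and 5.24 on wild-type arrays and 5.25, 5.30 and 5.33 on knock-out arrays. The difference of 0.23 did not pass (limma adjusted p = 0.057) but passed with a replicate block (adjusted p = 0.027), and the arrays did not overlap, as was the case for 42.3% of all genes. Ptgdr, Ptgdr2 and Tbxa2r were under background as well. In the list of leukotriene and lipoxygenase genes 3 of 12 rose and 1 fell, and 10 of the 12 were under background in both genotypes. The largest change was that of the lipoxygenase gene Alox12b (0.68, from 5.12 to 5.80). Alox5ap and Aloxe3 rose and Alox5 fell, each under background in both genotypes.

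**Figure D3:**
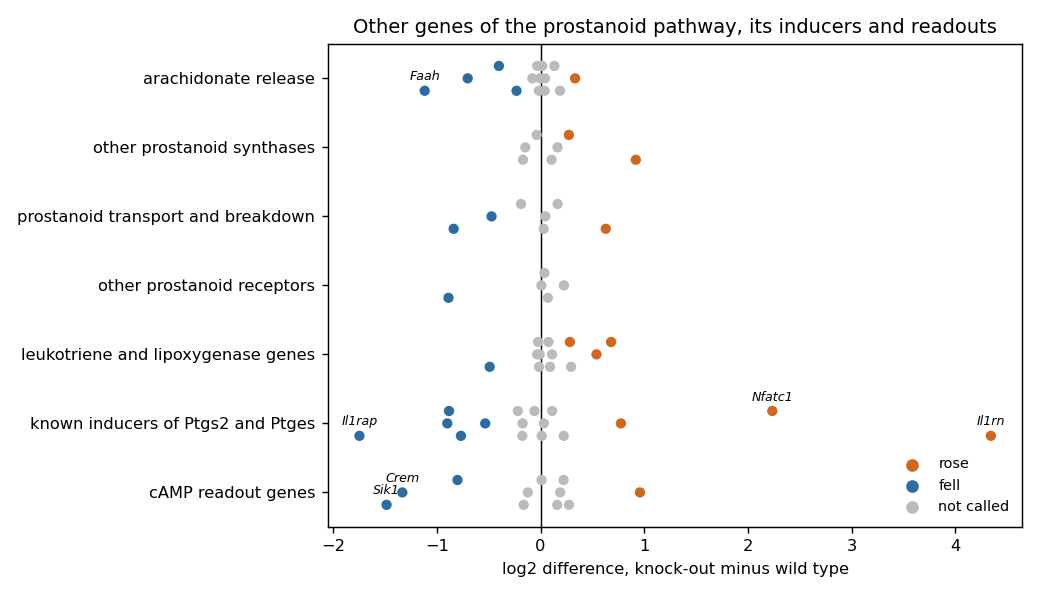
Log2 difference, knock-out minus wild type (horizontal axis), of 72 other genes in 7 lists (vertical axis), 1 point a gene, orange where it rose, blue where it fell and grey where it was not called. Names mark called changes of at least 2-fold: Faah, Il1rap, Il1rn, Nfatc1, Crem and Sik1.

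Genes known to induce Ptgs2 and Ptges, listed with other genes of interleukin 1 signalling, gave 3 rises and 5 falls of 16. Il1rn, which is no inducer but the secreted antagonist of interleukin 1, rose from 6.32 to 10.66 (log2 difference 4.34, SE 0.08, limma adjusted p = 6.1e-11). Il1rap, the accessory chain of the interleukin 1 receptor, fell from 8.76 to 7.01 (log2 difference −1.75, SE 0.08, limma adjusted p = 7.7e-08). Nfatc1, a calcium-regulated transcription factor, rose by 2.23 from a wild-type mean of 5.38, under background (limma adjusted p = 4.9e-09). The third rise was that of the receptor gene Tlr4, by 0.78 (limma adjusted p = 0.00015). Cebpb and Cebpd, transcription factors that act on the Ptgs2 promoter, fell by 0.88 and 0.90. The NF-kappaB subunits Rela and Nfkb2 fell by 0.53 and 0.77. Creb1, Egr1, Myd88 and Tnfrsf1a were above background and not called. Over all genes 31.6% were called, and the part of this list in the fall of Ptgs2 was not tested. Il1a, Il1b, Tnf and Il6 were under background in both genotypes.

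Transcripts known to respond to cyclic AMP, the messenger of Ptger4, gave 1 rise and 3 falls of 11, where 31.6% of all genes were called. Sik1, a kinase, fell from 9.82 to 8.34 (log2 difference −1.48, SE 0.08, limma adjusted p = 2.9e-07) and Crem, a transcriptional modulator, from 8.02 to 6.69 (log2 difference −1.33, SE 0.08, limma adjusted p = 3.4e-07). Rgs2, a G protein regulator, fell by 0.80, and the phosphodiesterase Pde4d rose by 0.96. Fos, Nr4a1, Nr4a2, Nr4a3, Dusp1, Pde4b and Per1 of this list were not called, nor was Egr1 of the inducer list. With a replicate block Fos and Pde4b, which differed by 0.27 and 0.22, were called higher (limma adjusted p = 0.013 and 0.048). The part of Ptger4 in these changes was not tested. These levels are of RNA and measure neither prostaglandins nor cyclic AMP.

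The nearest measured genes on the chromosome were read off the same fit. Their distance from the members was not taken into account, so they cannot show whether a difference extends along the DNA. Of these 18 genes, 1 on each side of each member in the GRCm38.p6 gene order, 2 rose and 4 fell. That is near the 31.6% called over all genes, and 1 of these changes was at least 2-fold. Pla2g4a, next to Ptgs2, differed by 0.13 and Pdc, on its other side, by −0.05, and neither passed, where Ptgs2 itself differed by −3.46. Beside Ptgis, Znfx1 differed by −0.11 and did not pass, and B4galt5, a galactosyltransferase, fell by 0.68. Dab2, an endocytic adaptor next to Ptger4, rose by 1.80 (from 10.42 to 12.22, SE 0.07, limma adjusted p = 1.6e-08) where Ptger4 fell. With the mean of its probe sets Dab2 rose by 0.91. Prrx2, a mesenchymal homeobox factor beside Ptges, rose by 0.59.

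**Figure D4:**
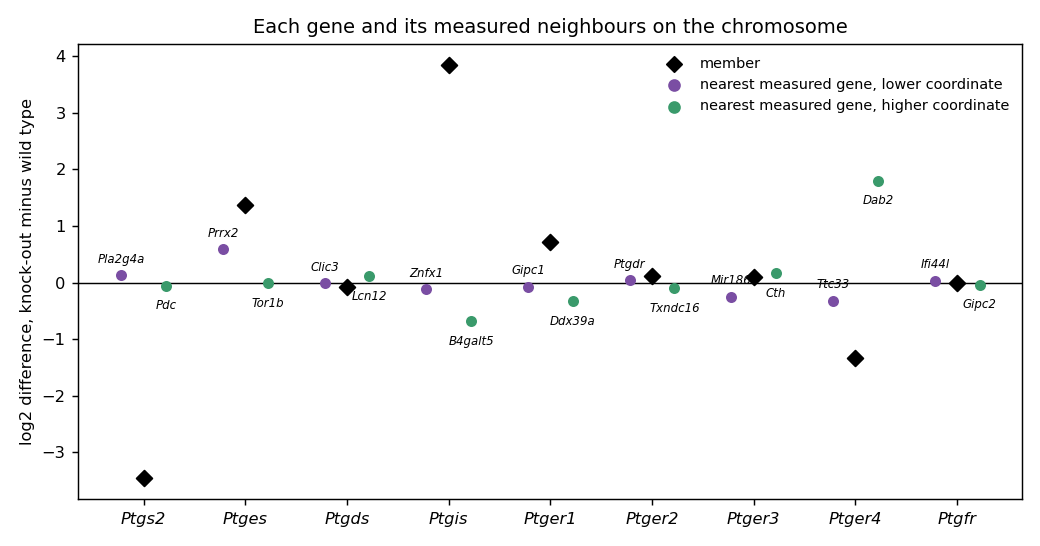
Log2 difference, knock-out minus wild type (vertical axis), of each measured member (diamond) and of the nearest measured gene on the side of lower (purple) and higher (green) coordinates. The neighbours of Ptgs2 lie at 0.13 and −0.05 and those of Ptgis at −0.11 and −0.68, while these members lie at −3.46 and 3.85.

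Ptgis had the largest change of the family, and the genes with the profile most like it were found by the root-mean-square difference over the 6 arrays, each gene centred on its own mean. They were Ifi27, an interferon-induced gene (0.0720), Mme, or neprilysin, a membrane peptidase (0.0848), and the potassium channel gene Kcnc2 (0.102). They rose by 3.79, 3.94 and 3.96. With 2 genotypes and 6 arrays such a profile holds little beyond the size of the difference.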

How the data were processed

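RNA of 3 wild-type and 3 knock-out samples was measured on 1-colour Affymetrix arrays. The deposited table holds 35556 probe sets, and its values are on a log2 scale as judged from their range (3.60 to 14.69). Per the submitters' processing notes Partek was used, with no version. How background, scaling and probe summaries were handled is not stated in the labels or notes used here. Deposited values were used unchanged, and the number of arrays limits the precision. GEO's platform annotation gave 1 symbol to 21789 probe sets, several to 1621 and none to 12146, and 21698 of the first matched RefSeq (GRCm38.p6) by gene ID. The probe set with the highest mean over 6 arrays was kept for each of 19938 genes.

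Genotypes, taken from the titles, were set against each other in R 4.3.3 by limma 3.58.1 (lmFit, then eBayes with no trend, 4 residual degrees of freedom) over all genes, with Benjamini-Hochberg adjustment and an adjusted p under 0.05 as the threshold. The fit was tested on simulated data with known changes. It recovered 78% of changes of 0.5 on the log2 scale and 100% of those of 1, 2 and 4, with 13 false calls. The simulated noise was independent between arrays and far fewer genes changed than were called here, so recovery in these data may differ. Named are all members, pathway genes that passed at 2-fold or more or led their list, neighbours that passed at 2-fold, checks of the groups and 3 genes like Ptgis; other genes were named as background or marker levels, or with their values seen. Members, lists, background level and alternatives were chosen with earlier results of these data known.

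Deviations from the genotype means correlated across genes at 0.19 to 0.29 between arrays of the same replicate number and at −0.18 to −0.0047 otherwise. Centring on those means ties these values together, so the negative ones follow in part from the positive ones. The numbers in the titles are treated as possible pairs, which was not tested. The reported fit, with its SEs, intervals and p-values, leaves the replicate number out. The alternatives add this number as a replicate block, and try other normalizations, filters, probe set rules, moderation, thresholds and each array left out.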

Additional observations from a re-analysis of the deposited data

How the results depend on the processing

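The log2 differences of the 9 measured members were computed under up to 15 alternatives each, 125 in all. Ptgs2 stayed between −3.55 and −3.29, Ptgis between 3.80 and 3.91, Ptger4 between −1.40 and −1.24, Ptges between 1.28 and 1.44 and Ptger1 between 0.66 and 0.76, each with a limma adjusted p of 0.000272 or less wherever it was tested. Ptgds, Ptger2, Ptger3 and Ptgfr were called under none of theirs. Ptgfr, with a main value near 0, changed sign with array weights (0.0031) and without knock-out replicate 1 (0.016), knock-out replicate 3 (0.015), wild-type replicate 1 (0.022) or wild-type replicate 3 (0.0081); leaving out single arrays gave −0.032 to 0.022, and the cause was not tested. In the fit with a replicate block the members called were again 5, with 33 pathway genes called against 27, and 7000 genes against 6296 overall. Among the members, the listed pathway genes, markers and neighbours, the genes like Ptgis and the checks of the groups, the block lost no call and added those of Ptgr1, Ptgir, Alox12, Myd88, Pde4b, Fos, Tubb3, Stmn2, Gja1 and Lgi1 (adjusted p = 0.0086 to 0.0477 with the block, 0.0463 for Lgi1). Lgi1 also passed with arrays centred on their medians, with trend and robust moderation and without wild-type replicate 1 (adjusted p = 0.0392, 0.0456 and 0.0183).

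Only genes above the median level left 2 members to test, Ptgs2 and Ptgis, and both were called; 17 of the 31 pathway genes left were called. Requiring a 2-fold change left 1061 genes in all, 6 pathway genes, 19 of 29 markers and 1 of 6 neighbours. Leaving out 1 array at a time gave 5485 to 5803 genes, 5 to 5 members, 26 to 29 pathway genes, 27 to 30 markers and 4 to 5 neighbours. Under the tested scalings the median difference of all genes moved from −0.01 to at most −0.06. Signal at background limits the folds of Ptges and Ptger4 and the reading of Ptger2, Ptger3 and Ptgfr.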
